A study of Mus musculus with 25 samples.

Results

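Ruminococcus was the third genus by mean share in mouse feces profiled by full-length 16S rRNA gene sequencing, and its 24 amplicon sequence variants (ASVs, distinct amplicon sequences after error removal) were followed here across 25 libraries. Members were all ASVs whose genus field read Ruminococcus, split by their species field, and they were 24 of the 1555 ASVs of the table and 18156 of its 300831 counts (6.04%). Libraries came from C57BL/6 mice in 5 groups of 5. One had sham surgery (Sham), one was OVX with no further label, and the others were OVX with GEX (OVX+GEX), with PBS (OVX+PBS) or with FMT (OVX+FMT). OVX is the usual abbreviation of ovariectomy, which removes the main source of estrogen, and was shared by all groups other than Sham. PBS is a buffered saline, FMT usually stands for fecal microbiota transplantation, and GEX is a treatment that the labels do not spell out, in a study whose design text speaks of a traditional medicine. Neither the donors of the transplant nor the age of the mice are given in the sources used here, and the sex field reads male, at odds with ovariectomy, so that the sex is not stated here. Library totals ran from 8498 to 22404 counts with a median of 10123. The labels do not say whether mice of a group shared a cage, so the p-values rest on variation among these libraries, which may be partly technical.

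Ruminococcus is a genus name that has gathered bacteria of different families. R. albus and R. flavefaciens are classic cellulose degraders of the rumen, R. champanellensis degrades cellulose in the human gut, and R. callidus is a sugar fermenter described from human feces. R. flavefaciens and R. champanellensis build cellulosomes, enzyme complexes held on the cell surface. R. gauvreauii, also described from human feces, falls among the Lachnospiraceae in 16S trees, although the family field of the table reads Oscillospiraceae for all 24 members. Species names here are those of relatives in an unstated database, the mouse strains may differ from the named species, and a share of 16S counts says nothing of the genes a strain carries.

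R. callidus made up most of the genus. Its 6 ASVs held 14646 counts, 80.7% of all Ruminococcus counts, and were found in 23 of 25 libraries. R. champanellensis followed with 6 ASVs and 7.20% of the counts in 24 libraries. R. flavefaciens had 2 ASVs and 5.92% in 24 libraries, and R. albus had a single ASV, ASV_64, with 3.98% in 24 libraries. R. gauvreauii had the most ASVs, 9, and the fewest counts, 406 (2.24%), in 18 libraries. The 3 most abundant ASVs, ASV_4 and ASV_19 of R. callidus and ASV_46 of R. flavefaciens, together held 80.5% of the genus.

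The genus as a whole was present in every library. In Sham it took 4.94%, 7.29%, 2.74%, 6.08% and 6.47% of the counts of replicates 1 to 5. In OVX the shares were 4.63%, 8.82%, 7.49%, 1.63% and 9.12%, and in OVX+GEX 6.66%, 5.48%, 14.2%, 0.659% and 3.43%. In OVX+PBS they were 2.40%, 10.9%, 6.77%, 10.2% and 0.340%, and in OVX+FMT 7.32%, 9.54%, 12.5%, 1.96% and 4.84%. All 5 groups overlapped, and each group with ovariectomy held libraries both below and above the whole Sham range. By the 95% Wilson interval, which covers counting error only, the shares of OVX+GEX replicate 3 (13.5% to 15.0%) and replicate 4 (0.508% to 0.855%) were far apart within 1 group. By mean the order was OVX+FMT, OVX, OVX+PBS, OVX+GEX and Sham, from 7.23% ± 4.08 to 5.50% ± 1.76 (SD, n = 5), and no neighbours in that order differed by more than their spread.

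**Figure D1:**
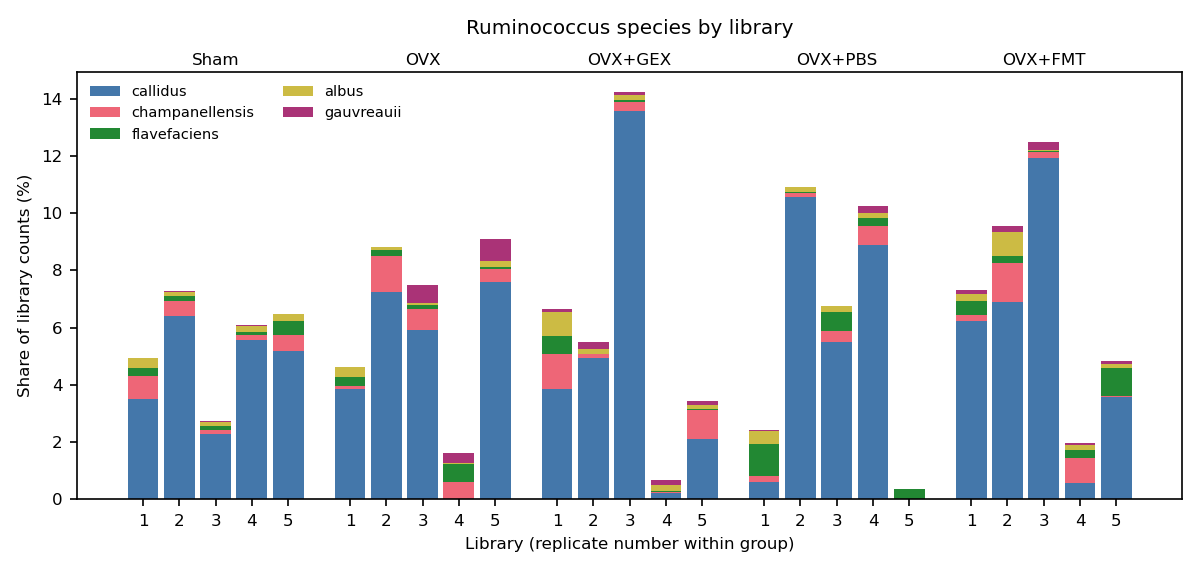
Share of all counts (y axis, percent) taken by each Ruminococcus species in each of the 25 libraries (x axis, by group and replicate), stacked by species. R. callidus fills most of the bar in most libraries and is absent from OVX replicate 4 and OVX+PBS replicate 5.

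Most of that spread lay in R. callidus. In Sham it took 3.50%, 6.39%, 2.29%, 5.58% and 5.18% of the counts. OVX replicate 4 and OVX+PBS replicate 5 held no R. callidus counts, while the other libraries of those groups held 3.84% to 7.61% and 0.602% to 10.6%. The libraries of OVX+GEX spanned 0.200% (replicate 4) to 13.6% (replicate 3), and those of OVX+FMT 0.580% (replicate 4) to 11.9% (replicate 3). Each ovariectomised group thus held at least 1 library far below the lowest Sham share, and the group means, 4.59% ± 1.66 in Sham and 4.92% ± 3.12 to 5.84% ± 4.23 in the others (SD, n = 5), lay closer together than their spread. Within the genus, R. callidus was 70.9% to 91.8% of Ruminococcus counts in the 5 Sham libraries, against 0% to 96.9% over the 20 libraries with ovariectomy. Where it was absent another species led: in OVX replicate 4 R. flavefaciens was 38.8% and R. champanellensis 35.8% of the genus, and in OVX+PBS replicate 5 the whole genus was 30 counts of R. flavefaciens.

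The cellulose-degrading species were minor and overlapped between all groups. R. champanellensis averaged between 0.281% ± 0.253 of counts in OVX+PBS and 0.631% ± 0.417 in OVX. R. flavefaciens averaged between 0.162% ± 0.268 in OVX+GEX and 0.486% ± 0.415 in OVX+PBS, and R. albus between 0.157% ± 0.134 in OVX and 0.296% ± 0.293 in OVX+GEX (SD, n = 5). Neighbouring groups in these orders differed by less than their spread. R. albus lay between 0.132% and 0.359% in the 5 Sham libraries and was missing from OVX+PBS replicate 5 alone.

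R. gauvreauii was the rarest species. It had 0, 6, 10, 3 and 0 counts in Sham replicates 1 to 5, and 0, 0, 58, 38 and 77 in OVX. In OVX+GEX it had 13, 24, 8, 14 and 16 counts, in OVX+PBS 5, 0, 0, 19 and 0, and in OVX+FMT 36, 20, 29, 6 and 24. All libraries of OVX+GEX and OVX+FMT held it at shares above every Sham share, pairs of groups that were not among the comparisons tested here, while OVX and OVX+PBS overlapped Sham. The gap was within counting error. The highest Sham share was 6 counts (0.0615%, replicate 2). The lowest were 6 counts in OVX+FMT replicate 4 (0.0633%) and 8 in OVX+GEX replicate 3 (0.0901%). How many of all species lie apart from Sham in this way was not counted. Its mean share was 0.0265% ± 0.0307 in Sham, 0.361% ± 0.362 in OVX, 0.153% ± 0.0564 in OVX+GEX, 0.049% ± 0.0972 in OVX+PBS and 0.165% ± 0.0837 in OVX+FMT (SD, n = 5).

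**Figure D2:**
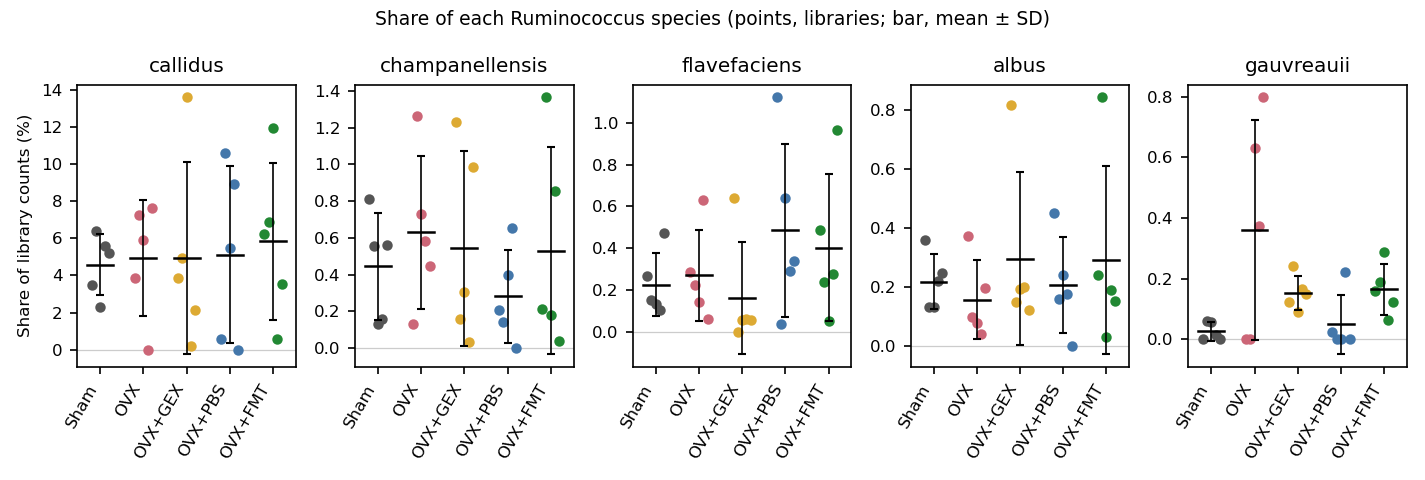
Share of all counts (y axis, percent) of each Ruminococcus species in the 5 groups, with a point for each library and bars for the mean ± SD (n = 5, the lower end of some bars passing below 0). The groups overlap for every species other than R. gauvreauii, whose OVX+GEX and OVX+FMT points lie above all Sham points. The lowest OVX+FMT point (0.0633%) is only just above the highest Sham point (0.0615%), both at 6 counts.

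Whether ovariectomy, GEX, the transplant or the vehicle went with a change of the genus was tested on counts summed per genus, with all 25 libraries in 1 fit (edgeR quasi-likelihood test, Benjamini-Hochberg adjustment over the 81 genera tested, threshold 0.05). Ruminococcus passed in none of the comparisons. Its log2 fold change was 0.69 (SE 0.66, adjusted p = 0.872) in OVX against Sham, -0.09 (SE 0.66, adjusted p = 0.979) in OVX+GEX against OVX, 0.29 (SE 0.66, adjusted p = 0.822) in OVX+FMT against OVX+PBS and 0.03 (SE 0.66, adjusted p = 1.0) in OVX+PBS against OVX. These 4 comparisons called 0% of all genera, with 5 to 12 of 81 at an unadjusted p under 0.05, and DESeq2 and limma called 0 or 1 genus in each. Over the 4 groups with ovariectomy against Sham, edgeR called 1 of 81 genera (1.23%), and the genus had a log2 fold change of 0.75 (SE 0.55, adjusted p = 0.463). Its mean shares there were 6.45% and 5.50%, and the estimate ran from 0.23 to 0.91 over the other scalings, filters and tests. With plain library totals the estimate for OVX against Sham was 0.20, so the size of both depends on the scaling. With an SE of 0.55 to 0.66 on the log2 scale no difference was detectable with these libraries, which does not show that there was none. The sign of the OVX+GEX estimate turned under other scalings and that of OVX+PBS against OVX with plain totals, so that neither has a direction.

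At the species level 125 species were tested and 0 of the 5 Ruminococcus species passed in any comparison, where edgeR called 0% of all species in the 4 pairwise comparisons and 5 of 125 (4%) for the 4 ovariectomised groups against Sham. DESeq2 and limma also called 0 of the 5, where over all species and the 5 comparisons, the last being that against Sham of all 4 groups, DESeq2 called 1, 0, 0, 1 and 5 and limma 3, 0, 2, 0 and 7 of 125. R. gauvreauii, with an unadjusted p under 0.05 in 2 comparisons, was the only member to reach that level. Its log2 fold change was 3.85 (SE 1.53) in OVX against Sham, at an edgeR adjusted p of 0.327, and -3.03 (SE 1.48) in OVX+PBS against OVX, at an adjusted p of 0.371. The second estimate was -5.31 without OVX+PBS replicate 4 and -2.13 without OVX+PBS replicate 3, and neither passed (adjusted p = 0.199 and 0.755 in edgeR). For the 4 ovariectomised groups against Sham it was 2.57 (SE 1.31, adjusted p = 0.278 in edgeR), and for OVX+FMT against OVX+PBS 2.04 (SE 1.43, adjusted p = 0.600). R. callidus had log2 fold changes of 0.01 to 0.48 over the 5 comparisons, each with an SE of 0.87 to 1.06, and R. albus, R. flavefaciens and R. champanellensis lay between -1.07 and 1.04 with an SE of 0.75 to 1.03.

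Below the species, R. callidus was carried by 3 variants. ASV_4 was present in all 23 libraries with R. callidus and made up 54.8% to 100% of its counts there. ASV_19 was found in 14 libraries and ASV_47 in 6, and 0 libraries held both. Neither was seen without ASV_4. In the libraries with ASV_19 there were 2.63 to 82.5 counts of it for each 100 of ASV_4, with a median of 66.8. In those with ASV_47 there were 23.0 to 66.4, with a median of 23.7. Of the 5 libraries with neither, OVX replicate 4 and OVX+PBS replicate 5 also lacked ASV_4, and in Sham replicate 3, OVX+GEX replicate 4 and OVX+FMT replicate 4 ASV_4 was all of the R. callidus counts. In OVX+GEX replicate 4 these were only 17 counts, and the 95% Wilson interval for a variant at 0 there reaches 18.4% of R. callidus, against 0.958% in Sham replicate 3.

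The companion of ASV_4 differed between libraries of the same group. In Sham, replicates 1 and 5 held ASV_47 (0.596% and 1.83% of all counts), replicates 2 and 4 held ASV_19 (1.31% and 0.143%), and replicate 3 held neither. In OVX the 4 libraries with R. callidus all held ASV_19, at 1.61%, 3.13%, 2.45% and 2.16%, and none held ASV_47. ASV_19 was in 3 libraries of OVX+GEX, 3 of OVX+PBS and 2 of OVX+FMT, and ASV_47 in 1, 1 and 2. The counts involved were well above the floor: ASV_19 had at least 32 counts and ASV_47 at least 43 wherever they were seen, where a count of 0 allows up to 3. The proportion to ASV_4 was not constant. ASV_19 made up 2.56% of R. callidus counts in Sham replicate 4 (95% Wilson interval 1.82% to 3.59%) and 45.2% in OVX+PBS replicate 2 (42.4% to 48.1%). ASV_47 made up 17.0% in Sham replicate 1 (13.4% to 21.4%) and 39.9% in OVX+PBS replicate 4 (36.5% to 43.4%). Whether these variants belong to separate strains was not tested.

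**Figure D3:**
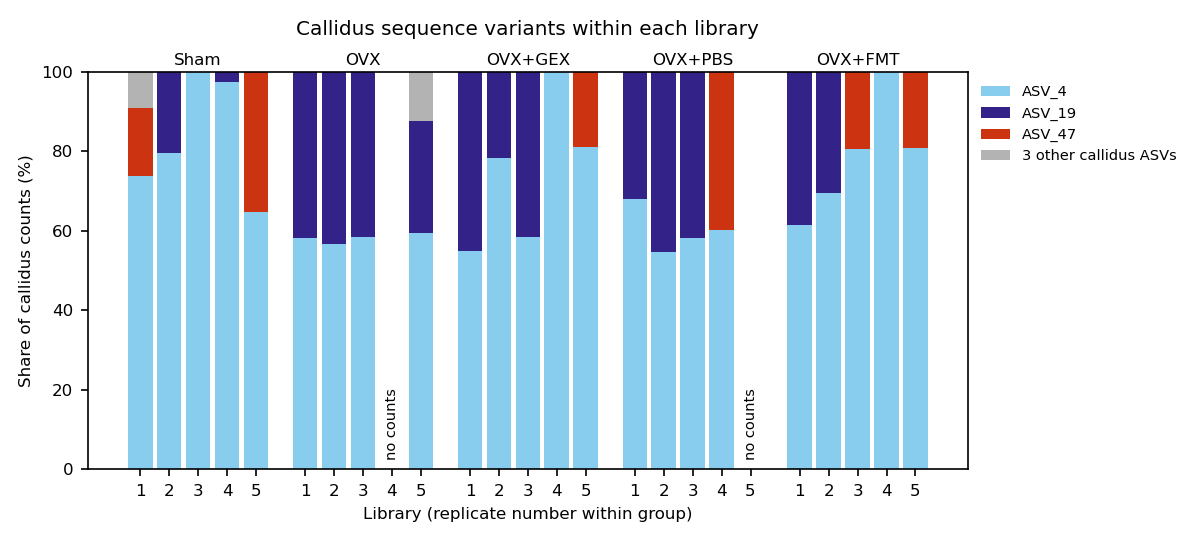
Share of R. callidus counts (y axis, percent) given by ASV_4, ASV_19, ASV_47 and the other R. callidus ASVs in each library (x axis, by group and replicate). ASV_4 is in every filled bar, and no bar holds both ASV_19 and ASV_47.

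Another 3 R. callidus ASVs were each seen in 1 library: ASV_444 with 51 counts and ASV_517 with 39 in OVX, and ASV_579 with 31 in Sham. Variants of R. champanellensis were set beside those of R. callidus. ASV_75, the most abundant R. champanellensis variant, was in 12 libraries, 10 of them among the 14 with ASV_19 (71.4% of the ASV_19 libraries and 83.3% of its own) and 0 among the 6 with ASV_47. ASV_229, also R. champanellensis, was in 6 libraries, 4 of them with ASV_47 and 1 with ASV_19. These pairs were picked out after their values were seen and are given as counts of libraries, which share the total of each library.

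R. champanellensis was split over 6 ASVs, none of them seen in more than 12 libraries. ASV_75 held 45.3% of its counts, ASV_142 18.8%, ASV_189 13.9% and ASV_229 9.87%. ASV_249, with 8.65%, was in 4 libraries, all with ovariectomy, and ASV_478, with 3.44%, in 3, also all with ovariectomy. As 20 of the 25 libraries are with ovariectomy, an ASV seen in so few libraries is often missing from Sham. The share of all such ASVs missing from Sham was not computed. ASV_75 and ASV_142 were found together in 2 libraries, of 12 and 9. R. flavefaciens and R. albus were each carried by 1 widespread ASV: ASV_46 held 97.0% of R. flavefaciens counts in 23 libraries, with ASV_574 (32 counts in 1 OVX library) as the other, and ASV_64 was all of R. albus. In R. gauvreauii ASV_107 held 90.6% of the counts, and its other 8 ASVs reached at most 10 counts in a library.

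**Figure D4:**
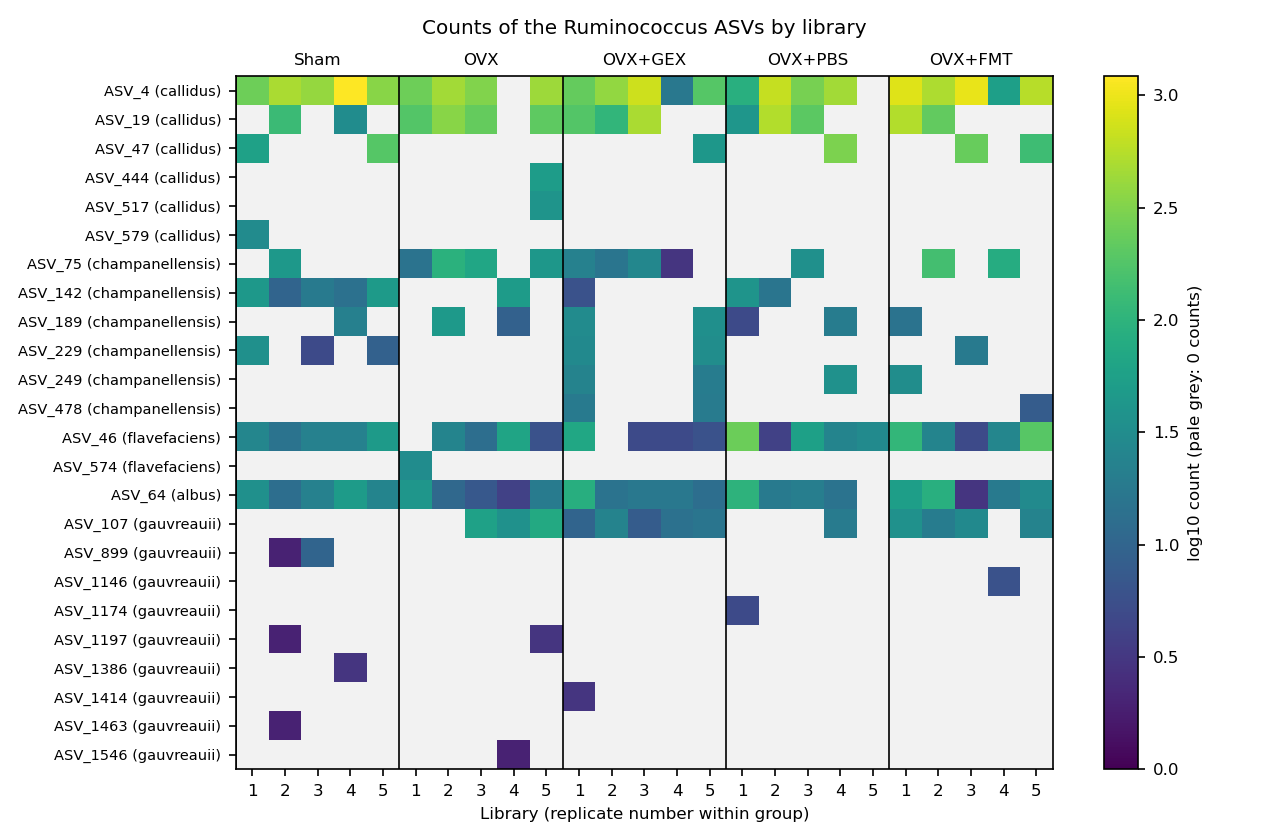
Counts (colour, log10 scale, pale grey where the count is 0) of the Ruminococcus ASVs (rows, by species) in the 25 libraries (columns, by group and replicate). ASV_4, ASV_46 and ASV_64 are seen almost throughout, and ASV_107 is at 0 in all 5 Sham libraries where ASV_142 is filled.

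Of the 24 members 10 passed the filter of at least 3 counts in at least 5 libraries and were tested among 379 ASVs. The 14 others held 1.92% of the Ruminococcus counts, and 10 of them were in 1 library. In OVX against Sham, OVX+GEX against OVX, OVX+FMT against OVX+PBS and OVX+PBS against OVX edgeR called 0% of all 379 ASVs and 0 of the 10 members. At an unadjusted p under 0.05 there were 3, 2, 2 and 1 members, beside 65, 73, 80 and 94 of all 379. DESeq2 called 2, 1, 0 and 1 members in these comparisons, of 2, 2, 6 and 5 ASVs it called in all, and limma called 0 members, of 1, 0, 0 and 0. For the 4 ovariectomised groups against Sham edgeR called 45 of 379 ASVs (11.9%), 4 of them higher (1.06%) and 41 lower (10.8%), and it called 2 of the 10 members, 1 in each direction. DESeq2 called 8 of 379 ASVs there and limma 19, with ASV_107 among those of both and ASV_142 among those of limma. ASV_107 passed the filter only through libraries with ovariectomy, so it was bound to differ in some measure. ASV_142 was in 4 libraries with ovariectomy and needed at least 1 Sham library to pass. The filter thus leaned on the group where each was high, and the count of members called supports nothing. The median log2 fold change over all ASVs was -0.86 there and over the 10 members 0.24. With limma on centred log-ratios the median over all ASVs was 0.12. A fit that treats the 20 libraries with ovariectomy as a single group called 0 of 379 ASVs and so 0 of the 10 members.

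ASV_107, the main R. gauvreauii variant, was the member called higher. It had 0 counts in all 5 Sham libraries. In OVX it had 0, 0, 58, 36 and 74 counts, in OVX+GEX 10, 24, 8, 14 and 16, in OVX+PBS 0, 0, 0, 19 and 0, and in OVX+FMT 36, 20, 29, 0 and 24. It was thus in 13 of 20 libraries with ovariectomy and 0 of 5 Sham libraries, and the 7 libraries without it overlapped Sham. With the floor of 3 counts per Sham library, its mean share of 0.174% in the 20 libraries was at least 7.13-fold higher than in Sham, at an edgeR adjusted p of 0.0321. For OVX alone the mean was at least 14.4-fold higher, at an adjusted p of 0.158 in edgeR. In that comparison DESeq2 called it (adjusted p = 0.0113), while the exact permutation test of shares gave p = 0.167 (0.638 adjusted over all ASVs). An exact permutation test of its shares in 20 against 5 libraries gave p = 0.0723 (0.325 adjusted over all ASVs), the fit with a single ovariectomised group an edgeR adjusted p of 0.174, and leaving out any 1 Sham library an edgeR adjusted p of 0.0564 to 0.0771. The call did not hold in these alternatives, while DESeq2 (adjusted p = 0.00192) and limma (adjusted p = 0.0328) also called it. R. gauvreauii counts in Sham, 19 in all, came from other ASVs of the species.

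ASV_142 of R. champanellensis was the member called lower. Sham replicates 1 to 5 had 44, 10, 18, 14 and 48 counts of it. OVX had 50 in replicate 4 and 0 in the others, OVX+GEX 6 in replicate 1 and 0 in the others, OVX+PBS 40 and 16 in replicates 1 and 2 and 0 in the others, and OVX+FMT 0 in all. It was in 5 of 5 Sham libraries and 4 of 20 with ovariectomy, of which both OVX+PBS shares lay within the Sham range, that of OVX replicate 4 above it and that of OVX+GEX replicate 1 below it. The log2 fold change was -3.72 (SE 1.27, edgeR adjusted p = 0.0448). It is the mean of 4 group coefficients, of which that of OVX+FMT belongs to a group at 0, and so is not the fold between the mean shares of 0.239% ± 0.205 (SD, n = 5) in Sham and 0.0438% over the 20 libraries. It was -2.38 with an edgeR adjusted p of 0.499 for a single ovariectomised group, and the exact permutation test of shares gave p = 0.00924 (0.113 adjusted over all ASVs). The call was lost in 16 of the 25 fits that leave out a library. Without Sham replicate 5 the edgeR adjusted p was 0.143, and without OVX replicate 4, which has the highest share, it was 0.00616 with a log2 fold change of -5.45. Limma also called ASV_142 (-3.60, adjusted p = 0.0332). So did edgeR with plain library totals (adjusted p = 0.0440) and with the replicate block (adjusted p = 0.0238). In edgeR it did not pass with TMMwsp (adjusted p = 0.0658), DESeq2 size factors (0.0597) or a filter of 10 counts in 5 libraries (0.0654). DESeq2 gave no adjusted p for it.

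**Figure D5:**
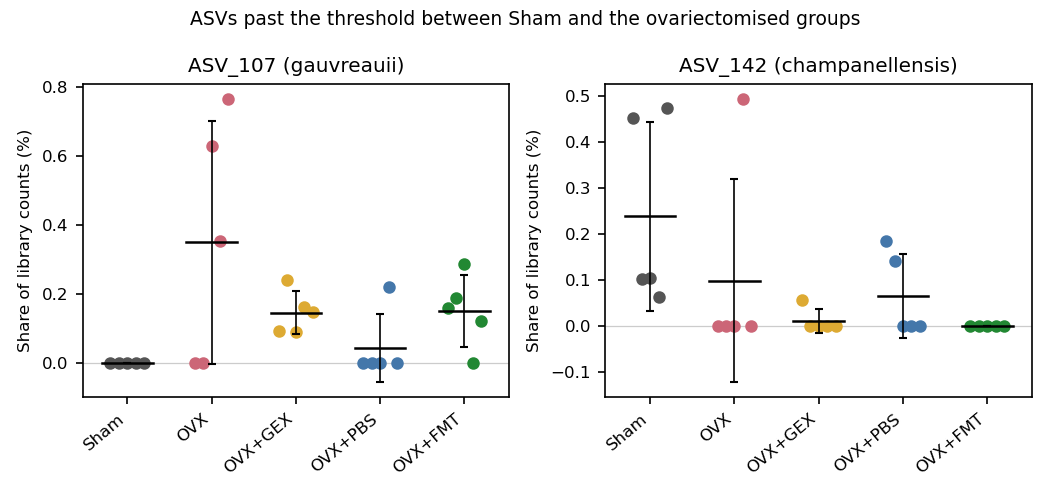
Share of all counts (y axis, percent) of ASV_107 (R. gauvreauii) and ASV_142 (R. champanellensis) in each library, by group (x axis), with a point for each library. ASV_107 is at 0 in all 5 Sham libraries and above 0 in 13 of 20 others, and ASV_142 is above 0 in all 5 Sham libraries and in 4 of 20 others.

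The number of Ruminococcus ASVs was also computed at equal depth. The expected number in 8498 reads was 6.94 ± 1.22 in Sham, 6.39 ± 1.52 in OVX, 7.40 ± 3.05 in OVX+GEX, 4.97 ± 2.42 in OVX+PBS and 6.00 ± 0.707 in OVX+FMT (SD, n = 5). At full depth the means were 7.0, 6.4, 7.4, 5.0 and 6.0. The groups overlapped, from 1 ASV in OVX+PBS replicate 5 to 12 in OVX+GEX replicate 1.

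The remaining tested ASVs passed in no comparison in the edgeR fit of all 25 libraries with the filter above. ASV_47 was at 0 in OVX and so at least 16.5-fold lower there than in Sham, where 2 of 5 libraries held it, with an edgeR adjusted p of 0.158. Without Sham replicate 5, the higher of those 2, the bound was 5.06-fold. DESeq2 called it lower (adjusted p = 0.000296), while the exact permutation test of shares gave p = 0.444 (0.859 adjusted over all ASVs). In OVX+PBS against OVX, with 1 OVX+PBS library holding it, the adjusted p was 0.127 in edgeR and 4.98e-05 in DESeq2. For ASV_229 the estimate was -3.38 on the log2 scale (SE 1.25, edgeR adjusted p = 0.0653) in the 4 ovariectomised groups against Sham, where it was in 3 of 20 and 3 of 5 libraries. That is again a mean of coefficients, with OVX and OVX+PBS at 0, and the mean shares were 0.0379% and 0.0954%. Without OVX+FMT replicate 3 the estimate was -4.81 and passed (edgeR adjusted p = 0.0157), and without Sham replicate 1 it was -2.02 (edgeR adjusted p = 0.229). For ASV_19 it was 2.27 (edgeR adjusted p = 0.376), with mean shares of 1.48% and 0.291%. Most of the Sham mean came from replicate 2, without which the estimate was 4.76 (edgeR adjusted p = 0.116). Filters that keep rarer ASVs called ASV_19 (edgeR adjusted p = 0.0381 with no filter and 0.0400 with 3 counts in 3 libraries). They called 479 of 1555 and 161 of 630 ASVs in all. The exact permutation test of its shares gave p = 0.126 (0.424 adjusted over all ASVs). ASV_4, ASV_46 and ASV_64 had log2 fold changes between -0.31 and 0.39 with an SE of 0.70 to 1.15.

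Other bacteria once named Ruminococcus, and relatives of like habits, were set beside the members. Among the Lachnospiraceae-related names, 10 ASVs carried a bracketed Ruminococcus name inside Mediterraneibacter, 9 of them R. gnavus, known for foraging on mucin. R. gnavus averaged 0.739% ± 0.295 in Sham, 0.336% ± 0.216 in OVX, 0.256% ± 0.127 in OVX+GEX, 0.453% ± 0.457 in OVX+PBS and 0.163% ± 0.142 in OVX+FMT (SD, n = 5). Its log2 fold change for the 4 ovariectomised groups against Sham was -1.08 (SE 0.61, edgeR adjusted p = 0.352). In every list examined, and in all 5 comparisons, 0 members passed. Of 5 tested Lachnospiraceae relatives (Blautia, Coprococcus, Faecalicatena, Marvinbryantia and Mediterraneibacter) all had lower estimates in the 4 ovariectomised groups, with a median log2 fold change of -0.66 against -0.13 over all genera and a smallest adjusted p of 0.0908 (edgeR). Coprococcus was only at -0.03 (SE 0.07), with mean shares of 0.00715% and, in Sham, 0.00691%. In OVX against Sham 2 of the 5 had higher and 3 lower estimates. The plant-fibre clostridia Acetivibrio, Anaerobacterium and Ruminiclostridium had log2 fold changes of 0.00, 0.11 and -0.08 in the 4 ovariectomised groups against Sham. Their mean shares were nonetheless lower than in Sham: 5.549% against 8.109%, 4.785% against 6.326% and 0.325% against 0.506%. The estimates follow TMM scaling, with which the median over all genera was -0.13, against -0.69 with plain totals.

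Likeness to other genera was taken as Spearman's rho of centred log-ratio values (0.5 added to each count) across the 25 libraries. The genera that ran most like Ruminococcus were Monoglobus, a pectin degrader (rho 0.67), Turicibacter (0.46) and Caldicoprobacter (0.46). There were 80 genera compared, with a median of 0.06. For R. callidus they were Monoglobus (0.68), Caldicoprobacter (0.53) and Bifidobacterium (0.39). R. albus ran most like Anaerobacterium (0.64) and R. flavefaciens like Bacteroides (0.60) and Anaerobacterium (0.55). R. gauvreauii ran most like Ligilactobacillus (0.65) and Romboutsia (0.61), and R. champanellensis like Blautia (0.43). These coefficients describe log-ratios of counts that share each library's total, and groups are pooled in them.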

How the data were processed

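Feces of 25 mice were sequenced as full-length 16S rRNA amplicons on a PacBio instrument, per the labels' protocols. The deposited table holds whole-number read counts per ASV and, per the file headers, a taxonomy column, split here into 7 ranks. The submitters' processing notes list Subread with no role, and the sources used here do not name the denoiser, primers, filters or taxonomy database. No value of 1 occurs and 464 are 2, for a reason that was not stated. Samples were found by column name, with 5 columns spelled OVX+GES taken as OVX+GEX.

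Counts were summed per genus, species and ASV over the whole table and tested with edgeR 4.0.16 in R 4.3.3 (quasi-likelihood F test, TMM normalization, all 25 libraries in 1 fit). Features needed at least 3 counts in at least 5 libraries, and p-values were adjusted by Benjamini-Hochberg over all features. The 4 ovariectomised groups against Sham is the mean of 4 group coefficients against Sham. Standard errors came from the F statistic. Alternatives were DESeq2 1.42.0, limma 3.58.1 on centred log-ratios (0.5 added to each count), other scalings and filters, a block for the replicate number, a fit of only the groups in question and each library left out. Exact two-sided permutation tests of shares and a single ovariectomised group were added after the data were seen. Deviations of same-numbered libraries of OVX+GEX and OVX had correlations of 0.136 to 0.211 in all 5 pairs, and those of the other comparisons -0.3 to 0.223. Libraries with unlike numbers were not compared and the labels state no pairing. These values therefore cannot show whether numbers pair samples. The main fit has no block for the number. The floor for a count of 0 was 3 counts of the library total (0.0134% to 0.0353% of a library). Floors and 95% Wilson intervals reflect counting error alone. The members, the lists of relatives and the ASVs named (the 10 with the highest mean share, and any past the threshold) were chosen with earlier results of these data known. The fitting steps were tested on simulated data.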

Additional observations from a re-analysis of the deposited data

Results flagged for a closer look

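Of the groups of 5 libraries examined for 16 quantities, 75 could be tested for a library far from the others (gap over range above Dixon's critical value of 0.71), and 21 were flagged, each for a high library. For normally distributed values chance flags about 1 in 20 groups, but these shares hold many zeros, so that rate does not apply here. In 10 of the 21 the other 4 libraries were all at 0, so that the flag says only that a variant was seen in a single library. The flags are also not separate, as a species and its main ASV can be flagged for the same counts.

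OVX+GEX replicate 1 stood apart for R. flavefaciens (0.639% of counts, with ASV_46 also at 0.639%, others 0% to 0.0588%), R. albus and its ASV_64 (0.818%, others 0.121% to 0.2%) and ASV_142 (0.0564%, others 0%). It was also the library with the most Ruminococcus ASVs, 12. OVX+FMT replicate 2 stood apart for R. albus and ASV_64 at 0.844%.

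OVX+PBS replicate 4 stood apart for R. gauvreauii and its ASV_107 (0.222% each), ASV_47 (3.55%) and ASV_189 (0.234%). It is the single OVX+PBS library with ASV_107. Sham replicate 2 stood apart for ASV_19 (1.31%) and ASV_75 (0.451%), the variants found together elsewhere.

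The other values were ASV_47 at 0.399% in OVX+GEX replicate 5, ASV_75 at 0.399% in OVX+PBS replicate 3, ASV_142 at 0.494% in OVX replicate 4, and ASV_229 at 0.36% in Sham replicate 1 and 0.179% in OVX+FMT replicate 3. ASV_189 stood apart at 0.0982% in Sham replicate 4, 0.415% in OVX replicate 2 and 0.067% in OVX+FMT replicate 1.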

How the results depend on the processing

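No call at genus or species level appeared for a member under any alternative. Directions with small estimates flipped: Ruminococcus in OVX+GEX against OVX was 0.11 with TMMwsp, 0.0696 with DESeq2 size factors and with DESeq2's test, 0.13 with no filter, 0.17 with a filter of 10 counts in 5 libraries and 0.17 with only the groups compared, and in OVX+PBS against OVX -0.0468 with plain totals, -0.0256 with limma and -0.0218 with only the groups compared. Leaving out a library moved these from -0.46 (without OVX+GEX replicate 3) to 0.32 (without OVX replicate 3) and from -0.30 (without OVX+PBS replicate 4) to 0.68 (without OVX+PBS replicate 5), and OVX+FMT against OVX+PBS from -0.19 (without OVX+PBS replicate 5) to 0.63 (without OVX+PBS replicate 4).

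Members called at ASV level were 2, 1 and 1 with DESeq2 in OVX against Sham, OVX+GEX against OVX and OVX+PBS against OVX, of 2, 2 and 5 ASVs called in all. They were 1 and 1 in the first and the last with no filter (of 1 and 6 called) and with 3 counts in 3 libraries (of 1 and 7). For the 4 ovariectomised groups against Sham (2 in the report) they were 1 with TMMwsp, DESeq2 size factors, DESeq2 and 10 counts in 5 libraries, 9 with no filter, 5 with 3 counts in 3 libraries, 0 with a single ovariectomised group or exact permutation, and 0 to 3 without a library. ASV_47 was called there without OVX+GEX replicate 5 (-4.37, adjusted p = 0.0344 in edgeR) or OVX+PBS replicate 4 (-5.09, 0.0122), and ASV_229 without OVX+FMT replicate 3 (-4.81, 0.0157). Each library left out here is the only one of its group with the ASV, so these fits have a further group at 0. Over all ASVs TMMwsp called 30, DESeq2 size factors 38 and DESeq2 8 of 379, the stricter filter 18 of 236, no filter 479 of 1555 and 3 counts in 3 libraries 161 of 630. A single ovariectomised group called 0 and exact permutation 9 of 379. The fits without a library called from 11 of 362 (without Sham replicate 4) to 50 of 374 (without OVX+FMT replicate 1). The median of all ASVs moved from -0.86 to -0.49 with TMMwsp and to -0.34 with a single ovariectomised group. With limma on centred log-ratios its sign turned, to 0.12.

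In that comparison R. callidus was -0.30 with limma, ASV_4 0.0947 with TMMwsp and 0.0231 with DESeq2's size factors and test (-0.49 to 0.0085 without a library), and ASV_64 -0.25 with the replicate block (-0.21 to 0.25 without a library). Without a library ASV_46 ran from -0.0894 to 0.85, ASV_75 from -0.17 to 7.61 and ASV_189 from -0.0018 to 5.62. The replicate block changed no other direction or call. The ends for ASV_75 were without OVX+PBS replicate 3 (-0.17) and without Sham replicate 2 (7.61). Those for ASV_189 were without OVX+FMT replicate 1 (-0.0018) and without Sham replicate 4 (5.62). Each of these libraries is the only one of its group with that ASV, so these fits have a group at 0. The cause of the other changes was not tested. Without OVX+PBS replicate 4, ASV_107 is at 0 in both Sham and OVX+PBS and the mean of 4 coefficients could not be estimated; with a single ovariectomised group it was 7.43 (edgeR adjusted p = 0.155). Because 14 of 24 members were seen in fewer than 5 libraries, they were not tested.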
